A study of Mus musculus with 14 samples.

Results

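Matrix metalloproteinases (MMPs) and their tissue inhibitors (TIMPs) were followed in bulk RNA sequencing of mouse kidney after renal ischemia/reperfusion injury (IRI). The genes were 6 proteases (Mmp2, Mmp3, Mmp7, Mmp9, Mmp12 and Mmp14) and 3 inhibitors (Timp1, Timp2 and Timp3), taken by symbol, and they made up 9 of the 24411 genes counted. There were 4 libraries at day 0, 5 at day 1 and 5 at day 3 after IRI, all from C57/B6 male mice 8 weeks old with no transgene or drug named in the labels. The study used these libraries to follow gene expression over the course of acute kidney injury, and the labels did not say whether the day 0 mice were sham operated. The number in the deposited file names had 1 digit in all 4 libraries of day 0, in 3 of day 1 and in 2 of day 3, and 3 digits in the other 2 of day 1 and 3 of day 3. What this number format stands for was not given in the sources used here. Day and format could therefore be compared with each other at days 1 and 3, while 3-digit libraries cannot be told apart from their day when set against day 0. The labels numbered the libraries as separate samples and did not say that each came from a separate animal, so p-values measure the spread between these samples.

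MMPs are zinc-dependent enzymes that cut proteins of the extracellular matrix and the cell surface. Most are secreted as inactive precursors that other proteases or membrane-type MMPs open, and TIMPs bind the active enzymes and block them. In the injured kidney they act on the tubular basement membrane and the interstitial matrix, and they are made by tubular cells, fibroblasts and infiltrating leukocytes. Several MMP genes are known targets of AP-1, a transcription factor built from Fos and Jun proteins.

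Reads on genes ranged from 12485600 to 20477000 per library (medians 17147300 at day 0, 18297700 at day 1 and 16511400 at day 3). Between 98.5% and 98.7% of strand-assigned reads of a library were on the strand counted here. No pair of libraries of a day looked like a repeat deposit: a chi-square test of their counts gave 5.70 to 234 per degree of freedom, and each entered as its own sample. The kidney label was checked against 8 proximal tubule markers, whose summed level at day 0 was 39027 to 42656 CPM (read counts scaled to library size). Among the libraries after IRI, replicate 2 of day 3 had the lowest summed level of 7 injured tubule markers (7006 CPM, against 8652 to 42082 in the other 9), and day 0 libraries had 1328 to 1702 CPM. All 9 genes passed the filter on low counts, which kept 14300 genes. Mmp3, Mmp7, Mmp9 and Timp1 had at most 5, 6, 5 and 9 reads in a day 0 library and passed only through libraries after IRI.

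Mmp3, Mmp7 and Mmp12 lie in 1 cluster on chromosome 9 of the GRCm38 build (mm10). Mmp12 is at chr9:7344381-7369499, Mmp3 at chr9:7445822-7455975 and Mmp7 at chr9:7692090-7699585, all on the plus strand. The others are spread over 6 chromosomes: Mmp9 at chr2:164940780-164955850, Mmp2 at chr8:92827291-92853420, Timp3 at chr10:86300372-86349506, Timp2 at chr11:118301069-118355740 on the minus strand, Mmp14 at chr14:54431612-54445364 and Timp1 at chrX:20870166-20874735. The 250 bases before the start of a gene were read from RefSeq (GRCm38.p6) and searched for the AP-1 motif TGANTCA, which is the same on both strands. Of the 9 genes, 7 had an entry (Mmp2 and Mmp9 had none), and the motif was present for 3 of those 7, namely the 3 genes of the chromosome 9 cluster. Over all promoters, 7.819% of 27025 genes and 6.749% of 32851 windows held it. The windows that held the motif are shown with the motif in capitals because these are the genes whose promoter held it, and that of Timp1 is shown because Timp1 had the highest estimated fold change. They are chr9:7445572-7445821 for Mmp3, chr9:7691840-7692089 for Mmp7, chr9:7347124-7347373 for Mmp12 (before an internal start of the gene) and chrX:20869916-20870165 for Timp1, all on the plus strand.
Mmp3: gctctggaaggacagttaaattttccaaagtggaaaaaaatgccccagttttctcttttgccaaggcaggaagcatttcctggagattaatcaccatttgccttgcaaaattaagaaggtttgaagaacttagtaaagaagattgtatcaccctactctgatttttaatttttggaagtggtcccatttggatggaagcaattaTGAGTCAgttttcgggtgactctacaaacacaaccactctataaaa
Mmp7: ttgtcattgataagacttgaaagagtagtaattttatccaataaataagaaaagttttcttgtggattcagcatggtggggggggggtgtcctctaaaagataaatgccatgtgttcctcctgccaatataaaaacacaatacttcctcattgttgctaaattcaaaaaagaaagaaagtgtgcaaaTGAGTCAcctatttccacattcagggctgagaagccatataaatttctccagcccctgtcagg
Mmp12: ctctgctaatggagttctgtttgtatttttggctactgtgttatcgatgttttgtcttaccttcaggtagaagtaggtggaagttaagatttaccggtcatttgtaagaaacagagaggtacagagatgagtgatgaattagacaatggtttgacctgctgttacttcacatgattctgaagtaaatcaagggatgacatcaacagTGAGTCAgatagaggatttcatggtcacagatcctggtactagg
Timp1: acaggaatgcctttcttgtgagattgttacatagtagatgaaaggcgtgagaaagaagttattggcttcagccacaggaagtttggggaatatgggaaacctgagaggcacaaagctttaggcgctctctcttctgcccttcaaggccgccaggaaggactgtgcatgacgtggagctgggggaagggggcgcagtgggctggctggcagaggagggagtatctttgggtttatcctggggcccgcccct
The first base of the motif was 46 bases before the start of Mmp3, 63 before that of Mmp7 and 44 before the internal start of Mmp12. A second window of Mmp7 and a second of Mmp12 did not hold these letters, nor did the windows of Mmp14, Timp1, Timp2 and Timp3. A match is a description of the sequence, and binding was not measured.

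At day 0 the kidney held these transcripts at very different levels. Per kilobase of the union of a gene's exons, Timp3, an inhibitor that binds to the matrix itself, stood at 346 CPM per kb ± 62.1 (SD, n = 4). Timp2 followed at 9.67 CPM per kb ± 0.601, Mmp2 at 1.39 ± 0.133 and Mmp14 at 0.849 ± 0.172, and on this scale the ranges of these 4 genes did not overlap. Mmp12 (0.233 ± 0.0728 CPM per kb), Timp1 (0.216 ± 0.262), Mmp7 (0.126 ± 0.149), Mmp3 (0.0908 ± 0.0874) and Mmp9 (0.0378 ± 0.0342) came last, and each overlapped its neighbours in this order. The exon lengths came from GENCODE, whereas the annotation behind the counts was not given. Without division by length, Mmp14 (4.17 to 6.36 CPM) and Mmp2 (4.30 to 5.30 CPM) overlapped. Mmp12 (1.24 to 2.42 CPM) was then above Timp1 (0 to 0.53 CPM). Timp1, Mmp3, Mmp7 and Mmp9 rested on only 13, 11, 9 and 9 reads over the 4 day 0 libraries, so that their fitted fold changes depend on the prior count of the fit.

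**Figure D1:**
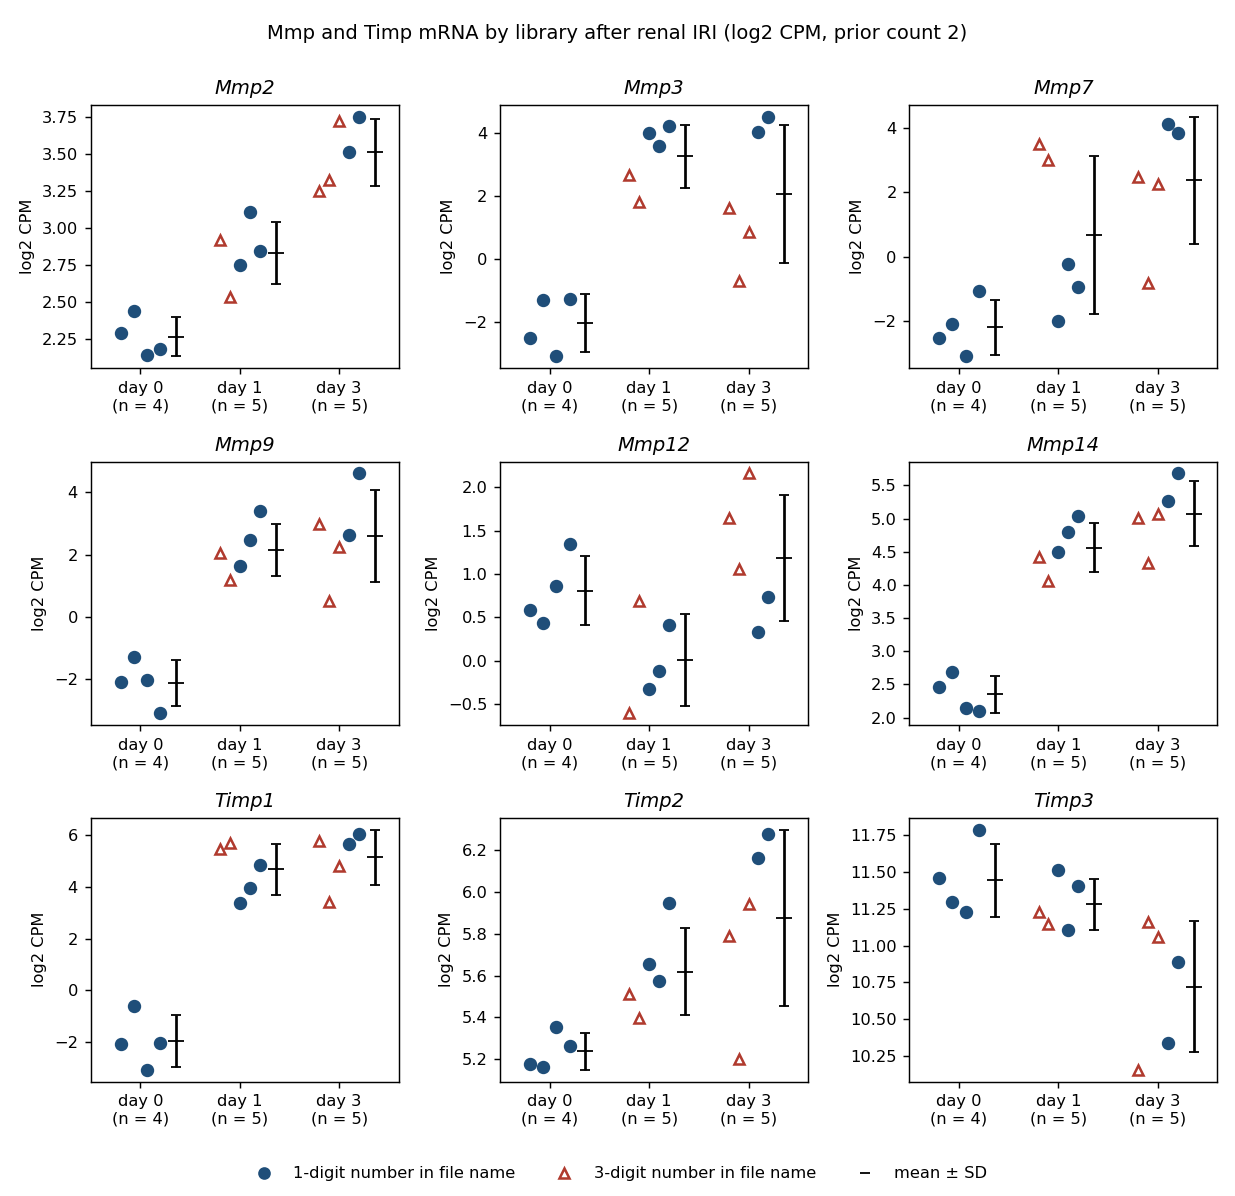
Level of each gene in each library as log2 CPM with a prior count of 2 (y axis) by day after IRI (x axis, n = 4, 5 and 5), with filled circles for libraries with a 1-digit number in the file name, open triangles for those with a 3-digit number and bars for the mean ± SD. Mmp2, Mmp3, Mmp9, Mmp14 and Timp1 lie above day 0 in every library of both later days, and the formats separate on both days for Mmp3, Mmp7, Mmp14 and Timp2.

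Against day 0, 6 of the 9 genes were higher at day 1 and none was lower by edgeR's quasi-likelihood test with Benjamini-Hochberg adjustment over all genes. The number was 6 as well at an unadjusted p under 0.05 and 6 by DESeq2. In this comparison 42.1% of all genes tested were called, and 23.3% were called higher. The 6 were Timp1, Mmp3, Mmp9, Mmp7, Mmp14 and Mmp2, and the median log2 fold change of the 9 was 2.25, against 0.01 over all genes. At day 3, 7 genes were higher and Timp3 was lower than at day 0, where 33.3% of all genes were called and 19.5% were called higher, and the median log2 fold change of the 9 was 2.79, against 0.05 over all genes. Groups did not overlap for 6 of the 9 genes at day 1 (42% of all genes) and for 7 at day 3 (33.4% of all genes). Both comparisons share the day 0 libraries. Mmp3, Mmp7, Mmp9 and Timp1 passed the filter only through libraries after IRI, where they are high. The filter therefore favoured a rise for them, and their calls and the medians of the 9 are descriptions only. With at least 10 counts required of every library, 5 of the 9 genes were tested. Of these, 2 were called at day 1 and 4 at day 3, as were 5309 and 3926 of 12186 genes. In whole kidney, more cells of a type and more RNA per cell cannot be told apart.

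**Figure D2:**
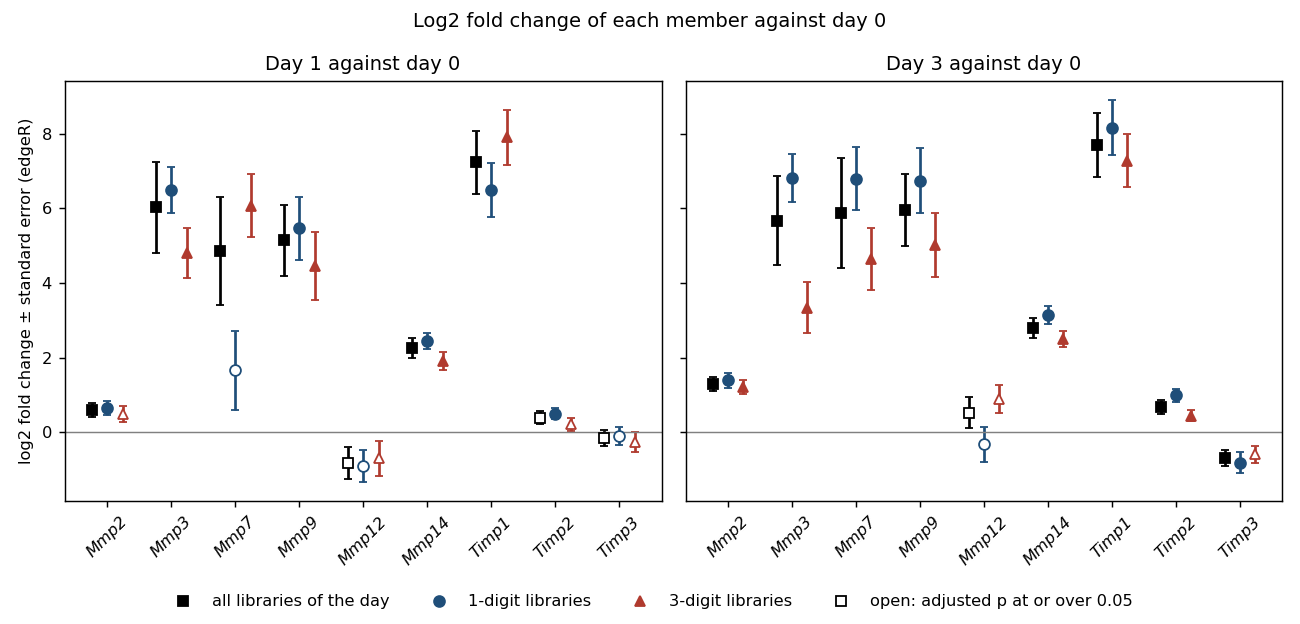
Log2 fold change against day 0 from edgeR with a standard error derived from the F statistic (y axis) for each gene (x axis) at day 1 and at day 3, from all libraries of the day (black squares), its 1-digit libraries (blue circles) and its 3-digit libraries (red triangles), with open symbols for an adjusted p at or over 0.05. Timp1 has the highest estimate on both days (7.24 and 7.70 from all libraries), and Mmp7 at day 1 differs most by format (1.65 in 1-digit and 6.07 in 3-digit libraries).

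Mmp2 and Mmp9 are the gelatinases, which cut denatured collagen and type IV collagen of basement membranes. Mmp2 was at 4.77, 5.30, 4.30 and 4.41 CPM in replicates 1 to 4 of day 0. It was at 7.44 and 5.68 CPM in the 3-digit and 6.61, 8.52 and 7.08 CPM in the 1-digit day 1 libraries. At day 3 it was at 9.42, 9.91 and 13.1 CPM in the 3-digit and 11.3 and 13.4 CPM in the 1-digit libraries. The 3 days did not overlap, and the formats overlapped within each day. Mmp2 rose by a log2 fold change of 0.59 at day 1 (SE 0.18, adjusted p = 0.0186) and of 1.28 at day 3 (SE 0.18, adjusted p = 2.63e-04). From day 1 to day 3 it rose by 0.69 (SE 0.17, adjusted p = 0.0155). The day 1 call was lost without replicate 3 of day 0 (adjusted p = 0.0563), without replicate 4 (0.0503) and with the replicate number as a block (0.0602), and the rise from day 1 to day 3 was lost when only those days were fitted (0.0575).

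Mmp9, the gelatinase stored in the granules of neutrophils, was at 0.12, 0.29, 0.13 and 0 CPM at day 0 (2, 5, 2 and 0 reads), where a count of 0 allows up to 0.181 CPM in that library. At day 1 it was at 4.04 and 2.18 CPM in the 3-digit and 3.00, 5.37 and 10.5 CPM in the 1-digit libraries. Its day 3 level was 7.79, 1.30 and 4.60 CPM in the 3-digit and 6.12 and 24.2 CPM in the 1-digit libraries. Every library after IRI was above every day 0 library, and the formats overlapped on both days. The log2 fold change was 5.14 at day 1 (SE 0.95, adjusted p = 9.84e-04) and 5.95 at day 3 (SE 0.96, adjusted p = 5.77e-04). Pooled over libraries, the rise was 34.1-fold at day 1 (exact 95% interval 17.8 to 75.2) and 59.4-fold at day 3 (31.1 to 131), where the interval covers counting error only and 330 of the 690 day 3 reads were from replicate 5. Mmp9 stayed called in the fits that left out 1 library, where the log2 fold change was 5.83 at day 1 and 6.64 at day 3 without replicate 2 of day 0 and 5.14 at day 3 without replicate 5 of that day. With the replicate block it was 4.50 and 5.02, and with the format term 6.54 at day 3. Summed neutrophil markers (10 genes listed in the files, 7 tested) moved with Mmp9: 1.77 to 2.30 CPM at day 0, 49.5 to 219 at day 1 and 19.4 to 484 at day 3. Of the 7, 6 were higher on each day (23.3% and 19.5% of all genes), and Camp, Mpo and Elane were at 0 in all day 0 libraries. Replicate 5 of day 3 was highest in both measures and replicate 2 of day 3 lowest of the libraries after IRI in both. Their part in the rise of Mmp9 was not tested.

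Mmp3, stromelysin-1, cuts proteoglycans, fibronectin and basement membrane proteins and activates other pro-MMPs. At day 0 it had 1, 5, 0 and 5 reads (0.058, 0.29, 0 and 0.30 CPM, where the count of 0 allows up to 0.190 CPM). At day 1 it reached 6.25 and 3.36 CPM in the 3-digit and 16.1, 11.9 and 18.4 CPM in the 1-digit libraries. At day 3 it was at 2.95, 0.51 and 1.68 CPM in the 3-digit and 16.2 and 22.7 CPM in the 1-digit libraries. Every library after IRI was above day 0, and the 3-digit libraries were below all 1-digit libraries on each day. Mmp3 rose at day 1 (log2 fold change 6.02, SE 1.21, adjusted p = 0.00168) and at day 3 (5.67, SE 1.20, adjusted p = 0.00314), and the pooled rise was 61.5-fold at day 1 (exact 95% interval 34.2 to 124) and 45.9-fold at day 3 (25.5 to 92.4). The log2 fold change at day 3 was 4.97 without replicate 5 of that day and 4.60 with the replicate block, and with the format term it was 6.89 at day 1 and 6.37 at day 3, all of them called.

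Mmp7, matrilysin, is a small MMP without the hemopexin domain and is made mainly by epithelial cells. At day 0 it had 1, 2, 0 and 6 reads (0.058, 0.12, 0 and 0.36 CPM). At day 1 the 3-digit libraries held 11.1 and 7.95 CPM, and the 1-digit libraries held 0.14, 0.74 and 0.40 CPM. At day 3 the 3-digit libraries held 5.40, 0.45 and 4.65 CPM, and the 1-digit libraries held 17.3 and 14.3 CPM. The order of the formats was therefore opposite on the days, and the 1-digit libraries of day 1 overlapped day 0. Over all libraries the log2 fold change was 4.86 at day 1 (SE 1.45, adjusted p = 0.0154) and 5.88 at day 3 (SE 1.47, adjusted p = 0.00809). When only days 0 and 1 were fitted, Mmp7 did not pass the filter and was not tested. With the number format as an additive term the day 1 call was lost (4.24, adjusted p = 0.0596). That term assumes the same format shift on days 1 and 3, whereas the shift of Mmp7 was 4.41 at day 1 and -2.17 at day 3. The 1-digit libraries of day 1 alone gave 1.65 (SE 1.06, adjusted p = 0.195). The estimate was 5.95 at day 1 and 6.97 at day 3 when replicate 4 of day 0 was left out, and without replicate 1 of day 1 it was 4.03 at day 1. An antisense gene (AV064505) shares 123 exon bases with Mmp7 on the opposite strand, and the unstranded count was lower than the stranded one (155 against 258 reads in replicate 4 of day 3).

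Mmp12, macrophage elastase, cuts elastin and is made mainly by macrophages. It was at 1.38, 1.24, 1.71 and 2.42 CPM at day 0. At day 1 it was at 0.54 and 1.5 CPM in the 3-digit and 0.68, 0.80 and 1.21 CPM in the 1-digit libraries. Its day 3 level was 3.00, 1.97 and 4.36 CPM in the 3-digit and 1.14 and 1.54 CPM in the 1-digit libraries. Both later days overlapped day 0, and no change from day 0 was called (log2 fold change -0.83 at day 1, SE 0.42, adjusted p = 0.129, and 0.52 at day 3, SE 0.42, adjusted p = 0.348). With the number format as a term, day 1 was lower than day 0 (-1.13, adjusted p = 0.0313) and the day 3 estimate became -0.0094 (adjusted p = 0.987). From day 1 to day 3 Mmp12 rose by 1.35 (SE 0.40, adjusted p = 0.0368), and the groups overlapped. That call was lost in 8 of the 14 fits that left out 1 library, namely without replicate 1 or 3 of day 0, replicate 1, 3, 4 or 5 of day 1, or replicate 1 or 3 of day 3 (adjusted p from 0.0512 to 0.108). It was also lost with the format term (0.0540), with the block (0.0840) and when only those days were fitted (0.0836). Mmp1b shares 157 exon bases with Mmp12 on the opposite strand and had 0 reads in each of the 14 libraries.

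The summed level of 11 macrophage markers was 136 to 214 CPM at day 0, 84.8 to 144 at day 1 and 134 to 476 at day 3. At day 3 it was 271 to 476 CPM in the 3-digit libraries, where Mmp12 was at 1.97 to 4.36 CPM, and 134 to 138 CPM in the 1-digit libraries, where Mmp12 was at 1.14 and 1.54 CPM. Their part in the level of Mmp12 was not tested. Of the 11 markers, 2 were higher and 1 lower at day 1 and 5 higher and 1 lower at day 3, where 42.1% and 33.3% of all genes were called. Cd68, a lysosomal protein of macrophages, was higher on both days (log2 fold change 3.57 and 3.53), whereas Csf1r, the receptor for the macrophage growth factor CSF1, was lower on both (-1.65 and -1.86).

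Mmp14 (MT1-MMP) sits in the cell membrane, cuts collagen and activates pro-MMP2 together with Timp2. It was at 5.41, 6.36, 4.30 and 4.17 CPM at day 0. It was at 21.4 and 16.6 CPM in the 3-digit and 22.4, 27.8 and 32.7 CPM in the 1-digit day 1 libraries. At day 3 it was at 32.2, 20.0 and 33.6 CPM in the 3-digit and 38.3 and 51.1 CPM in the 1-digit libraries. Every library after IRI was above all of day 0, and on each day the 1-digit libraries were above the 3-digit ones. Mmp14 rose by 2.25 at day 1 (SE 0.27, adjusted p = 5.11e-05) and by 2.79 at day 3 (SE 0.28, adjusted p = 1.55e-05), and it stayed called without any 1 of the 14 libraries and under each other setting tried.

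Timp1, a secreted inhibitor of most MMPs that is induced in injured tissue, had the highest estimated fold change of the 9 genes, resting on 13 day 0 reads. In the 1-digit libraries of day 1 it was level with Mmp3 (6.50, SE 0.72, against 6.49, SE 0.62). At day 0 Timp1 had 2, 9, 0 and 2 reads (0.12, 0.53, 0 and 0.12 CPM). At day 1 it reached 44.3 and 52.4 CPM in the 3-digit and 10.3, 15.6 and 29.0 CPM in the 1-digit libraries. Its day 3 level was 55.1, 10.7 and 28.2 CPM in the 3-digit and 50.5 and 65.7 CPM in the 1-digit libraries. Every library after IRI was above day 0, and the formats separated at day 1 and overlapped at day 3. The log2 fold change was 7.24 at day 1 (SE 0.84, adjusted p = 4.06e-05) and 7.70 at day 3 (SE 0.85, adjusted p = 3.88e-05), with 6.86 to 8.44 and 7.32 to 8.90 over the fits that left out 1 library, the highest on both days without replicate 2 of day 0. Pooled over libraries, Timp1 rose 166-fold at day 1 (exact 95% interval 97.2 to 313) and 208-fold at day 3 (121 to 391). Per kilobase it moved from 0.216 to 34.2 CPM per kb at day 1 and 47.3 CPM per kb at day 3, above Timp2 (12.7 and 15.5 CPM per kb) and below Timp3 (307 and 215 CPM per kb). The ranges of Timp1 and Timp2 overlapped on both later days. In CPM, without division by length, the mean of Timp1 (30.3 and 42.0) was below that of Timp2 (49.4 and 60.4).

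Timp2, which both inhibits Mmp2 and helps Mmp14 to activate it, was at 36.1, 35.7, 40.7 and 38.3 CPM at day 0. It was at 45.5 and 42.0 CPM in the 3-digit and 50.3, 47.5 and 61.6 CPM in the 1-digit day 1 libraries, all above day 0. At day 3 it was at 55.1, 36.7 and 61.4 CPM in the 3-digit and 71.5 and 77.5 CPM in the 1-digit libraries, and replicate 2 (36.7 CPM) lay within the day 0 range. The day 1 difference was not called (log2 fold change 0.39, SE 0.18, adjusted p = 0.10), and it was called when only those days were fitted (adjusted p = 0.0278), with the format as a term (0.00771) and without replicate 2 of day 3 (0.0318). At day 3 Timp2 rose by 0.68 (SE 0.18, adjusted p = 0.0125).

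Timp3 went the other way. It was at 2809, 2515, 2404 and 3528 CPM at day 0, at 2401 and 2263 CPM in the 3-digit and 2922, 2205 and 2717 CPM in the 1-digit day 1 libraries, and at 1143, 2287 and 2137 CPM in the 3-digit and 1295 and 1899 CPM in the 1-digit day 3 libraries. Day 1 overlapped day 0, and every day 3 library was below every day 0 library. Timp3 fell by 0.68 at day 3 on the log2 scale (SE 0.22, adjusted p = 0.0252), while the day 1 estimate was -0.17 (SE 0.22, adjusted p = 0.544). The day 3 call was lost without replicate 1 or 4 of day 0 or replicate 1 or 4 of day 3 (adjusted p from 0.0553 to 0.0864). Syn3 shares 1733 exon bases with Timp3 on the opposite strand, and at most 44 of the Timp3 reads of a library were on that strand.

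Between days 1 and 3, 2 of the 9 genes were called, Mmp2 and Mmp12 (above), where 15.9% of all genes were called. Mmp14 was also called with the format term (adjusted p = 0.0236) and without replicate 2 of day 3 (0.0402), Timp2 without that library (0.0452) and Timp3 by DESeq2 (0.0377). Mmp2 was the 1 gene whose libraries did not overlap between these days (7.61% of all genes). Within the 1-digit libraries 4 genes were higher at day 3 than at day 1, where 32% of all genes were called: Mmp7 (log2 fold change 5.14, SE 0.83, adjusted p = 8.77e-04), Timp1 (1.67, SE 0.55, adjusted p = 0.0335), Mmp14 (0.70, SE 0.25, adjusted p = 0.0471) and Mmp2 (0.73, SE 0.22, adjusted p = 0.0210). Of these, Mmp7 was called in each fit that left out 1 library, Mmp14 was lost in 9 of the 14 (adjusted p up to 0.293, kept without replicate 2 or 4 of day 0, replicate 5 of day 1 or replicate 1 or 2 of day 3), Timp1 in 4 (without replicate 3 or 4 of day 1 or replicate 4 or 5 of day 3) and Mmp2 in 3 (without replicate 3 or 5 of day 1 or replicate 5 of day 3). Mmp14 was also lost with RLE factors (adjusted p = 0.0641), without a filter (0.0583) and by DESeq2 (0.0542), and Timp1 by DESeq2 (0.109). Within the 3-digit libraries 2 genes were higher at day 3, Mmp12 (1.59, SE 0.49, adjusted p = 0.0475) and Mmp2 (0.72, SE 0.22, adjusted p = 0.0460), where 13.9% of all genes were called, and each of these calls was lost in 10 of the 14 fits (adjusted p up to 0.326 and 0.269). Mmp12 kept it without replicate 4 of day 0, 2 of day 1 or 2 or 4 of day 3, and Mmp2 without replicate 3 or 4 of day 1 or 1 or 4 of day 3. Without a filter neither was called (Mmp12 0.0552, Mmp2 0.0703). Calls gained within a format were those of Timp2 (1-digit, without replicate 5 of day 1 or 2 or 3 of day 3, 0.0133 to 0.0476), Timp3 (1-digit, by DESeq2, 0.0240, and without replicate 1 of day 3, 0.0250), Mmp3 (3-digit, by DESeq2, 0.0439, and without replicate 1 of day 3, 0.0279) and Mmp14 (3-digit, without replicate 2 of day 3, 0.0458).

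Each format was also set against day 0. The 1-digit libraries of day 1 gave 6 called genes of 9 (58.5% of all genes), with Timp2 (0.49, SE 0.16, adjusted p = 0.0149) and without Mmp7. The 3-digit libraries of day 1 gave 5 (41.6% of all genes), with Mmp7 (6.07, SE 0.85, adjusted p = 1.61e-04) and without Mmp2 (0.48, SE 0.21, adjusted p = 0.0803). At day 3 the 1-digit libraries gave 8 (53.7% of all genes) and the 3-digit libraries 7 (32.4% of all genes), where Timp3 was not called (-0.60, SE 0.24, adjusted p = 0.0717). In the 3-digit libraries of day 3, Timp3 was called by DESeq2 (0.0264) and without replicate 2 of day 3 (0.0339), as was Mmp12 without that library (1.13, adjusted p = 0.0419). Mmp3, Mmp9, Mmp14 and Timp1 were higher than day 0 in each of these 4 comparisons. Timp2 in the 1-digit libraries of day 1 was not called without replicate 5 of that day (0.38, adjusted p = 0.0807). The Timp2 call in the 3-digit libraries of day 3 (0.44, SE 0.16, adjusted p = 0.0446) was lost in 9 of the 14 fits that left out 1 library (up to 0.268, kept without replicate 4 or 5 of day 1 or 2, 4 or 5 of day 3), with RLE factors (0.0560) and without a filter (0.0708), and that of Timp3 in the 1-digit libraries of day 3 (-0.82, adjusted p = 0.0245) without replicate 4 of day 0 (0.0571) or replicate 4 of day 3 (0.196).

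Set against each other within a day, the formats differed for Mmp3 and Mmp7. At day 1, 2 of the 9 genes were called between formats (35% of all genes): Mmp7 was higher in the 3-digit libraries by 4.41 on the log2 scale (SE 0.83, adjusted p = 0.00188) and Mmp3 was lower in them (log2 ratio -1.69, SE 0.56, adjusted p = 0.0323). At day 3, Mmp3 (-3.49, SE 0.56, adjusted p = 0.00372) and Mmp7 (-2.17, SE 0.69, adjusted p = 0.0448) were both lower in the 3-digit libraries, and 18.5% of all genes were called. Groups did not overlap between formats for 5 genes at day 1 (60.7% of all genes) and for 5 at day 3 (41.4% of all genes). The difference between the format effects of the days was called for 1 gene, Mmp7 (-6.58, SE 1.08, adjusted p = 0.00207), and for 17.6% of all genes, while Timp1 gave -2.30 (SE 0.77, adjusted p = 0.0551) and Mmp3 -1.80 (SE 0.76, adjusted p = 0.116). The day 1 call of Mmp3 was lost without replicate 1, 2, 3 or 5 of that day (adjusted p from 0.0514 to 0.232) and the day 3 call of Mmp7 in 10 of the 14 fits (up to 0.150, kept without replicate 4 of day 0, 3 or 4 of day 1 or 1 of day 3), while the day 1 and the interaction call of Mmp7 and the day 3 call of Mmp3 held in all 14. In 4 of these fits an arm had 1 library, which was assumed to vary like the other groups. The Timp1 difference between days was called without a filter (adjusted p = 0.0469), without replicate 5 of day 1 (0.0352) and without replicate 1 of day 3 (0.00987), and that of Mmp3 without replicate 1 of day 3 (0.0310). Within a day, Timp1 was called between formats at day 1 without replicate 5 of that day or replicate 1 or 2 of day 3 (0.0179 to 0.0348) and at day 3 without replicate 1 of that day (0.0331). At day 3, Mmp9 was called without replicate 1 or 4 of that day (0.0348 and 0.0424), and Timp2 without replicate 1 or 3 of that day (0.0391 and 0.0417) and by DESeq2 (0.0447).

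**Figure D3:**
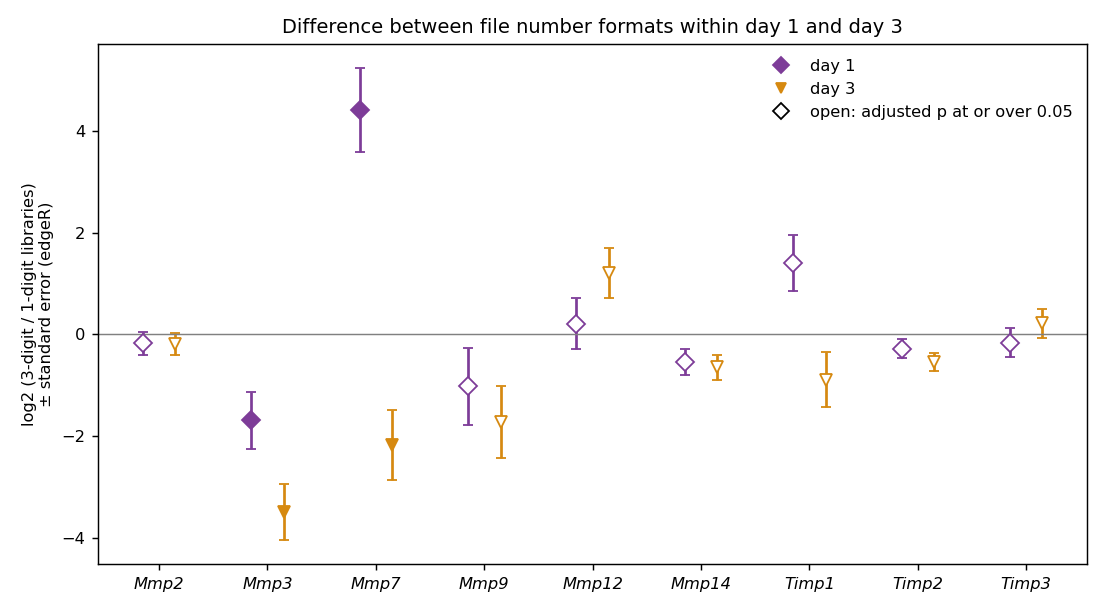
Log2 ratio of 3-digit to 1-digit libraries from edgeR with a standard error derived from the F statistic (y axis) for each gene (x axis), at day 1 (diamonds, 2 against 3 libraries) and at day 3 (triangles, 3 against 2), with open symbols for an adjusted p at or over 0.05. Mmp7 is above 0 at day 1 (4.41) and below 0 at day 3 (-2.17), and Mmp3 is below 0 on both days (-1.69 and -3.49).

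The summed markers of injured tubule and of smooth muscle had the same order by format as Mmp7. The injured tubule sum was 29086 and 36129 CPM in the 3-digit and 8652, 13737 and 14994 CPM in the 1-digit day 1 libraries. At day 3 it was 31857, 7006 and 21119 CPM in the 3-digit and 42082 and 33205 CPM in the 1-digit libraries. Of the 7 markers, 6 were higher than day 0 on each day (23.3% and 19.5% of all genes), led by Sox9, a transcription factor of regenerating tubule (log2 fold change 5.98 and 4.25), and Spp1, the matrix protein osteopontin (4.01 and 4.57). Between formats, 2 of these 7 were higher in the 3-digit libraries at day 1, 0 were called at day 3 by edgeR (1, Vcam1, was higher at an unadjusted p of 0.0383), and 2 were lower for the difference between days, so that the order at day 3 is one of the sum. Smooth muscle markers summed to 495 and 579 CPM in the 3-digit and 309 to 398 CPM in the 1-digit day 1 libraries, and to 290 to 347 CPM and 777 to 959 CPM at day 3. Of these 7 markers, 6 were higher in the 3-digit libraries at day 1, 3 were lower at day 3 and 4 were lower for the difference between days. Proximal tubule markers stood at 17838 and 28518 CPM in the 3-digit and 34513 to 44628 CPM in the 1-digit day 1 libraries, and overlapped at day 3 (8216 to 17157 CPM and 8978 to 10090 CPM). Of the 8 markers, 4 were lower in the 3-digit libraries at day 1, 3 were higher at day 3 and 6 were higher for the difference between days. Over all genes, 35% were called between formats at day 1, 18.5% at day 3 and 17.6% for the difference between days. The part of these marker levels in the Mmp7 difference was not tested.

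**Figure D4:**
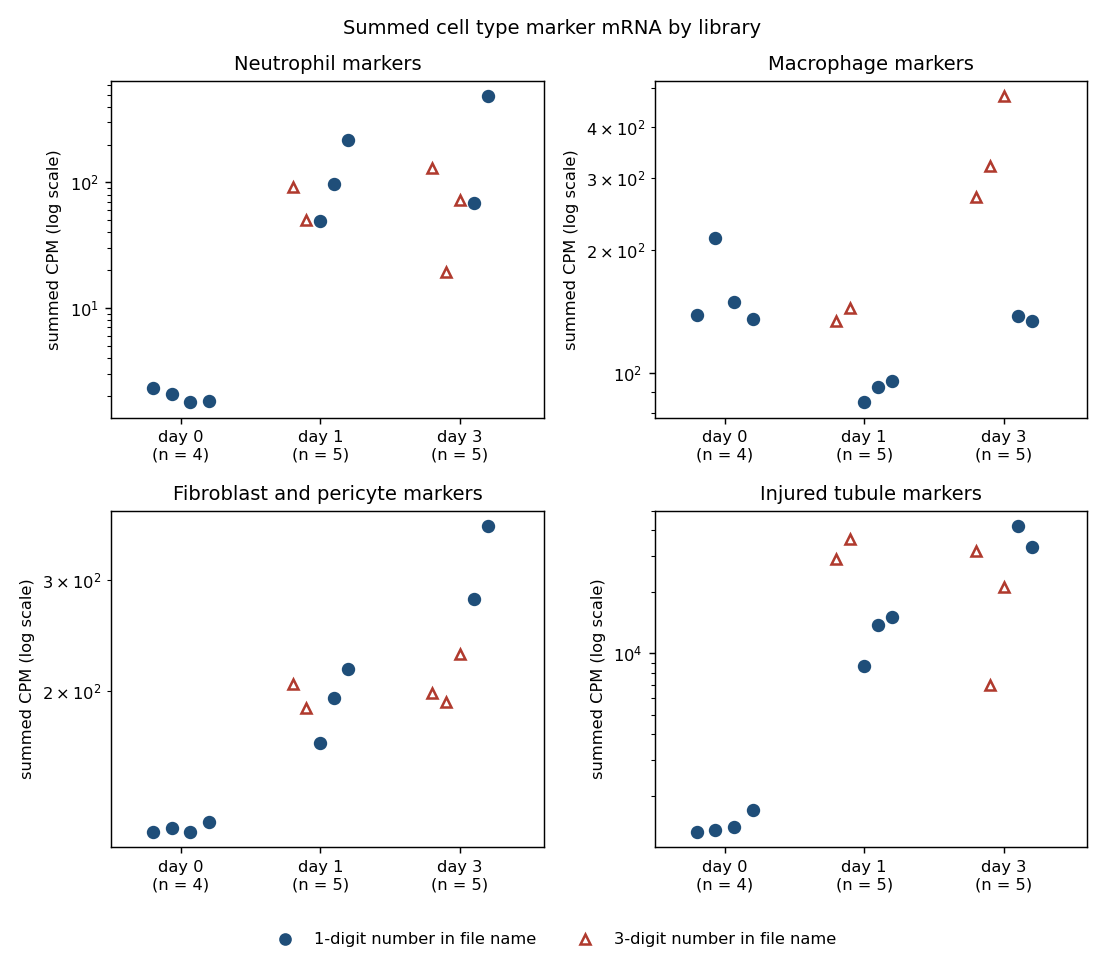
Summed CPM of the marker genes of 4 cell types (y axis, log scale) in each library by day (x axis), with filled circles for 1-digit and open triangles for 3-digit libraries. Neutrophil markers rise from at most 2.30 CPM at day 0 to between 19.4 and 484 CPM after IRI, and at day 3 macrophage markers separate by format (271 to 476 against 134 to 138 CPM).

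The remaining marker lists were as follows. Against day 0, 42.1% of all genes were called at day 1 and 33.3% at day 3. Between formats the shares were 35% at day 1, 18.5% at day 3 and 17.6% for the difference between days. Of 10 fibroblast and pericyte markers 1 was higher at day 1 and 4 at day 3, and their sum was 119 to 124 CPM at day 0, 165 to 216 at day 1 and 192 to 365 at day 3. Pdgfrb, the PDGF receptor of pericytes, was higher on both days (log2 fold change 1.53 and 2.12), and the part of these cells in the rise of Mmp2, Mmp14 and Timp2 was not tested. Of 7 smooth muscle markers 3 were higher on each day (sums of 143 to 171, 309 to 579 and 290 to 959 CPM). Of 7 urothelium markers 1 was higher at day 1 and 1 higher and 1 lower at day 3, the higher one being Krt20 (9.68 and 8.35), and the sums were 3.94 to 51.5 CPM at day 0, 365 to 1209 at day 1 and 54.7 to 883 at day 3. Between formats, 3 urothelium markers were higher in the 3-digit libraries at day 1 (median log2 ratio 3.45), 1 was lower at day 3 (median -1.41) and 2 were lower for the difference between days (median -3.65), as Mmp7 was, although the day 1 sums overlapped. Of 8 proximal tubule markers 2 were lower at day 1 and 4 at day 3, of 8 markers of other nephron segments 2 and 4 were lower, and of 6 endothelial markers 1 was higher and 2 lower at day 1 (sums of 239 to 305, 277 to 417 and 156 to 583 CPM). At day 3 the endothelial sums separated by format (156 to 261 CPM in the 3-digit and 366 to 583 CPM in the 1-digit libraries), with 4 of the 6 markers lower in the 3-digit libraries and 3 lower for the difference between days. The fibroblast and pericyte sums of day 3 separated too (192 to 229 CPM and 279 to 365 CPM), whereas the median log2 ratio of these 10 markers was 0.37, and edgeR called 1 of them higher and 2 lower in 3-digit libraries. The part of these lists in the format differences of Mmp3, Mmp7, Mmp14 and Timp2 was not tested.

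The level of a protease was next set beside that of an inhibitor in the same library, as a description without a test. The log2 ratio of Mmp9 to Timp1 was -0.15 ± 0.91 (SD, n = 4) at day 0, where both genes had few reads and the prior count pulls the ratio toward 0, -2.53 ± 1.37 (n = 5) at day 1 and -2.56 ± 0.65 (n = 5) at day 3. At day 1 it was -3.97 in the 3-digit and -1.57 in the 1-digit libraries, and these did not overlap. With a prior count of 0.5 the means by day were -0.18, -2.56 and -2.58. The log2 ratio of Mmp2 to Timp2 was -2.98 ± 0.21 at day 0, -2.79 ± 0.25 at day 1 and -2.36 ± 0.31 at day 3. Its range at day 3 (-2.65 to -1.88) was above that at day 0 (-3.21 to -2.72), and day 1 overlapped both.

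**Figure D5:**
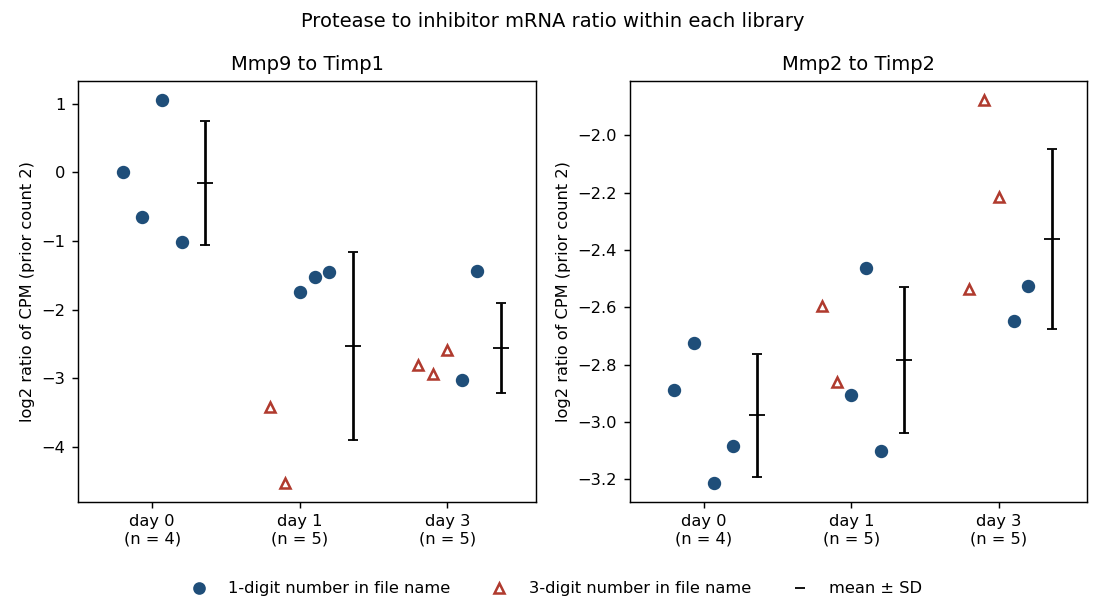
Log2 ratio of Mmp9 to Timp1 and of Mmp2 to Timp2 within each library (y axis, CPM with a prior count of 2) by day (x axis), with filled circles for 1-digit libraries, open triangles for 3-digit libraries and bars for the mean ± SD. The mean ratio of Mmp9 to Timp1 is -2.53 at day 1 and -2.56 at day 3, against a day 0 mean of -0.15 that rests on few reads, and that of Mmp2 to Timp2 is higher at day 3 (mean -2.36) than at day 0 (-2.98).

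The genes most like each of the 9 in pattern were found by Pearson's r of log2 CPM over the 14 libraries, among 13326 genes with a mean of at least 1 CPM. The libraries share their days and formats, so r is given as a description. For Mmp9 they were Wipf1 (r = 0.978), Mmp14 (0.977) and S100a8 (0.976), a calcium-binding protein abundant in neutrophils. Timp1 was most like Plp2 (0.981), Lcn2 (0.975), which encodes the tubular injury marker NGAL, and Anxa3 (0.975). Mmp14 was most like Calu (0.982), a calcium-binding protein of the secretory pathway, Adam8 (0.980) and Scara3 (0.977). Mmp7 was most like Tspan17 (0.980), Tmem98 (0.969) and Slc44a2 (0.967), and Mmp3 most like Ttc9 (0.989), Map3k6 (0.977) and Eif1ad (0.973). For Mmp2 the highest were Dse (0.943), Sp140 (0.941) and Rnf150 (0.925), for Timp2 Slc43a3 (0.951), Fkbp7 (0.948) and Gda (0.937), and for Timp3 Mtmr7 (0.931), Edem2 (0.921) and Sec23b (0.897). Mmp12 had the lowest top value (D3Ertd254e, 0.890, then Tnfrsf11a, 0.852, and Cdk5rap2, 0.850). Among the 9 themselves, Mmp9, Mmp14 and Timp1 were the most alike (0.930 to 0.977). Timp3 had a negative r with each of the other 8 (-0.650 to -0.226), and Mmp12 had values from -0.406 to 0.202.

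Of the 18 other Mmp and Timp genes 9 were tested, and 3 were higher and 2 lower than day 0 at day 1, against 5 higher and 0 lower at day 3 by edgeR, where Mmp13 was lower at an unadjusted p of 0.0279 (log2 fold change -1.5, adjusted p = 0.0729). Their median log2 fold change was 0.03 at day 1 and 1.08 at day 3, where 42.1% and 33.3% of all genes were called. Mmp8, the collagenase of neutrophils, went from 2 reads in all at day 0 to 1.64 to 6.68 CPM at day 1 and 0.34 to 10.5 CPM at day 3, a pooled ratio of 122 (exact 95% interval 33.4 to 1011) and 161 (44.3 to 1333). Mmp10, stromelysin-2, had 0 reads at day 0 and was at least 52.2-fold higher at day 1 and at least 14.2-fold higher at day 3, against a floor of 3 reads over the 4 day 0 libraries. Like Mmp3, it differed by format at day 3, with 3-digit libraries below the others (log2 ratio -3.99, SE 0.86, adjusted p = 0.0149). Mmp19 rose on both days (log2 fold change 3.94 and 3.63), and Mmp15, a membrane-type MMP, was lower at day 1 (-0.89, adjusted p = 0.0285) and higher at day 3 (1.08, adjusted p = 0.0147). Mmp23 was higher at day 3 (1.39) and Mmp28 lower at day 1 (-1.26), while Mmp11, Mmp13 and Mmp17 were not called against day 0 on either day. Mmp25 and Timp4 had at most 24 and 15 reads in a library and were not tested.

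Genes that activate or restrain MMPs were given by list. Over all genes, 42.1% were called at day 1 and 33.3% at day 3 against day 0. Of 14 tested genes of activation and inhibition, 8 were higher and 2 lower at day 1 and 8 higher and 1 lower at day 3 (median log2 fold change 1.28 and 1.43). Lcn2, whose protein binds Mmp9, rose by 9.55 and 9.63. Plaur, the urokinase receptor, rose by 5.29 at day 1, and Cd44, a hyaluronan receptor that can hold MMPs at the cell surface, by 3.78 at day 3. Of 14 ADAM and ADAMTS proteases, 7 were higher and 2 lower at day 1 and 8 higher and 1 lower at day 3 (medians 0.92 and 1.44), with Adamts4, an aggrecanase (5.0 and 4.28), and Adam8 (4.54 and 5.94) rising on both days, Adamts1 rising by 2.81 at day 1 and Adamts2, a procollagen-processing enzyme, by 3.45 at day 3.

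Of 20 basement membrane and matrix genes, which encode substrates of these proteases, 7 were higher and 3 lower at day 1 and 14 higher and 1 lower at day 3 (medians 0.66 and 1.44). In these comparisons 42.1% and 33.3% of all genes were called, 23.3% and 19.5% of them as higher than day 0 among all genes tested. Tnc, the matrix protein tenascin C, rose by 3.56 and 3.96, Col4a1 of type IV collagen by 1.60 and the basement membrane protein Nid1 by 1.47 at day 1, and the interstitial collagens Col3a1 and Col1a1 by 3.95 and 3.75 at day 3. Of 12 cytokine and AP-1 genes that can induce MMPs, 11 were higher at day 1 and 10 at day 3 (medians 4.11 and 2.76). Fosl1, an AP-1 subunit, went from 2 reads in all at day 0 to 94.6 CPM at day 1 and 10.3 CPM at day 3, and Lif, a cytokine of the IL-6 family, rose by 6.28 at day 1. Il6 had 0 reads at day 0 and was at least 125-fold higher at day 1 and at least 33.3-fold higher at day 3, and Osm (oncostatin M) had 1 read at day 0 and a pooled ratio of 49.6 at day 3 (exact 95% interval 8.59 to 1990).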

How the data were processed

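Total RNA of whole kidney was sequenced in 14 libraries (4, 5 and 5 at days 0, 1 and 3). The authors deposited counts of reads per gene from STAR, and the submitters' processing notes name Trimmomatic, STAR and mm10, while versions, parameters and annotation are not given in the sources used here. The counts of the reverse strand column were used as deposited. Entries that name no gene (29.0% to 38.3% of a library) were left out. Positions and exon lengths came from the GENCODE annotation of GRCm38.

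Counts were fitted with edgeR 4.0.16 in R 4.3.3 (limma 3.58.1): filterByExpr by day with a minimum count of 10, TMM factors, a quasi-likelihood fit by day and another by day and number format, and Benjamini-Hochberg adjustment over all 14300 genes with a threshold of 0.05. The test gives no standard error, so each SE was derived as the absolute log2 fold change divided by the square root of the F statistic. The fit was tested on simulated data. CPM were computed on TMM-scaled library sizes, with a prior count of 2 on the log2 scale. A library's count of 0 was given an upper limit of 3 counts. Intervals are exact at 95%, and intervals and limits cover counting error only.

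The members and the gene lists were chosen with earlier results of these data known. The 9 members were named in every comparison, other Mmp and Timp genes with at least 10 reads in a library, and from each other list up to 3 called genes with the largest change at day 1 or day 3 whose groups did not overlap. A gene that this rule would name is not reported here. Alternatives were unstranded counts, RLE factors, the fit without a filter or with 10 counts or more required of every library, DESeq2 1.42.0, only the days compared, a replicate block, the format as a term and leaving out each library. The format term was additive, so it assumed the same format shift on both later days.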

Additional observations from a re-analysis of the deposited data

Results flagged for a closer look

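The effect of the number format on Mmp7 differed between the days by a test of the difference itself. The 3-digit libraries were above the 1-digit libraries at day 1 (log2 ratio 4.41, SE 0.83) and below them at day 3 (-2.17, SE 0.69). The difference at day 3 minus that at day 1 was -6.58 (SE 1.08, adjusted p = 0.00207, edgeR's quasi-likelihood F-test), and it lay between -7.31 and -6.06 in the fits that left out 1 library. All 5 libraries of each day kept this order. This difference was called for 1 of the 9 genes and for 17.6% of all genes.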

How the results depend on the processing

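Outside the fits that left out 1 library, 543 results for single genes kept their direction and side of the threshold, 14 lost and 10 gained a call and 5 reversed, and in the fits that left out 1 library 1395 kept both, 76 lost and 22 gained a call and 19 reversed. Requiring at least 10 counts in every library left only 5 of the 9 genes to test, with 2 called at day 1 against day 0 and 4 at day 3, 3 and 1 in the 1-digit and 3-digit libraries of day 1, 4 and 3 in those of day 3, and 2 between days within 1-digit libraries. Of the 12186 genes tested there, the same comparisons called 5309, 3926, 7350, 5327, 6646, 3854 and 4230. There edgeR called 0 between formats at day 1 (0 at an unadjusted p under 0.05, 2 by DESeq2 over all 9 genes), 0 at day 3 (3 unadjusted, 3 by DESeq2) and 0 for the difference between days (0 unadjusted, 1 by DESeq2), where 4595, 2390 and 2416 of all genes were called. Day 3 against day 1 gave 0 calls by edgeR when only those days were fitted (3 unadjusted) and 1 with the replicate number as a block. Within 3-digit libraries it gave 0 without a filter (5 unadjusted). DESeq2 called 3 in each of these comparisons, but only with all 14 libraries and the main filter. Its counts in this paragraph all come from that setting. Without a filter the difference between days was called for 2 genes.

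Leaving out each library gave 5 to 7 called genes at day 1 and 7 to 8 at day 3 against day 0, 1 to 4 between days 1 and 3, 5 to 6 and 5 to 5 in the 1-digit and 3-digit libraries of day 1, 7 to 8 and 6 to 9 in those of day 3, 1 to 5 and 0 to 2 between days within 1-digit and 3-digit libraries (where edgeR gave 0, 2 to 4 genes had an unadjusted p under 0.05, and DESeq2 with all libraries called 3), 1 to 3 and 1 to 5 between formats at days 1 and 3, and 1 to 3 for the difference between days. The count over all genes also rests on single libraries. Between formats at day 3 it was 91, 1144, 1176 and 4771 without replicates 5, 3, 2 and 1 of day 3 against 2645, and at day 1 it was 1997 without replicate 2 of day 1 against 5001. For the difference between days it was 1260 and 1613 without replicates 1 and 2 of day 1 against 2510. Within 3-digit libraries it was 233 and 746 without the same replicates and 1309 without replicate 3 of day 3 against 1988, and within 1-digit libraries 2794 without replicate 4 of day 3 against 4571. The 3-digit libraries of day 1 gave 3420 and 3749 without replicates 1 and 2 against 5954. Day 3 against day 1 gave 831 with only those days and 1269 to 1460 without replicate 3, 4 or 5 of day 1 or 1 or 3 of day 3, against 2276. The replicate numbers did not pair the samples (r of deviations from -0.175 to 0.261, 4 of 13 pairs over 0.1, 4 correlating best with their own number), and the block gave 5162, 4103 and 2044 called genes in the comparisons of days.

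Reversed signs were those of Mmp12 at day 3 with the format term (-0.0094), and of the Mmp2 difference between days (0.034 with RLE factors, 0.012 without a filter, 0.0013 with the count minimum, 0.039 by DESeq2). Leaving out 1 library reversed the sign of Mmp9 between days 1 and 3 (-0.031 to 1.27) and within 1-digit (-0.044 to 1.95) and 3-digit libraries (-0.059 to 1.06), of Timp3 in the 1-digit libraries of day 1 (-0.19 to 0.021), of the format effects of Mmp2 (-0.40 to 0.0064) and Mmp12 (-0.71 to 0.74) at day 1 and Timp3 (-0.034 to 0.50) at day 3, and of the differences between days of Mmp2 (-0.19 to 0.22), Mmp14 (-0.30 to 0.10) and Mmp9 (-1.39 to 0.58). None of these values was called as reported. The cause was not tested. Depth limits Mmp3, Mmp7, Mmp9 and Timp1, whose day 0 levels rest on 9 to 13 reads in all.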

Other observations

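Of 27 groups of 4 or 5 libraries (each gene on each day), 0 held a library past Dixon's 95% value, where chance gives about 1.35. Replicate 2 of day 3 was the lowest library of that day for Mmp3, Mmp7, Mmp9, Mmp14, Timp1 and Timp2.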
